A study of Mus musculus with 11 samples.

Results

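The interleukin-12 family of cytokine subunits was followed through 11 RNA-seq samples of BV2, a mouse microglial cell line immortalised by oncogenes. The subunits were taken by symbol from the count tables, where 4 genes were selected, Il12b, Il23a, Il27 and Ebi3, of 36529 genes listed. The remaining subunit of the family, Il12a, was left out because it was listed at 0 in every sample, so this choice was selected on measured values, and the family was picked with results of these data known. Its folds and p-values are therefore descriptions, not independent evidence. Of the 4 members, 3 had counts, and Ebi3 was also listed at 0 in all 11 samples.

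In one experiment 3 samples received nApoE4(1-151), an amino-terminal fragment of human apolipoprotein E4, at 25 µg/ml for 5 h, and 3 samples were its controls. In the other, 2 samples received nApoE3(1-151) at the same dose and time, and 3 samples were its controls. Both fragments were His-tagged recombinant proteins that differ at a single residue. The labels name PBS as the vehicle of the controls while the methods of the study name conditioned media, and each fragment was run with controls of its own, so fragment and experiment cannot be told apart. All samples came from this single line, labelled C57BL/6. The labels do not say whether the replicates were separate cultures. The text of the study speaks of averaged independent trials without tying them to samples, so p-values measure the spread between these samples, part of which may be technical.

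Cytokines of this family are made of a pair of chains. The p40 chain encoded by Il12b pairs with p35 (Il12a) in IL-12 and with p19 (Il23a) in IL-23, while p28 (Il27) pairs with EBI3 (Ebi3) in IL-27, and p35 with EBI3 in IL-35. Macrophages, microglia and dendritic cells are known sources after stimulation of Toll-like receptors, and the main targets are T and NK cells, where IL-12 signals largely through STAT4 and IL-23 through STAT3.

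Depth was 39732710 to 44162511 gene counts per sample in the nApoE4 experiment and 55809688 to 69768666 in the nApoE3 experiment. A count of 3, taken as the floor, corresponded to 0.0429 to 0.0758 CPM, which are counts scaled to a common library size by TMM, and covers counting error only. The summed level of 10 macrophage and microglia markers was 2082 to 2683 CPM in every sample. P2ry12, among these, was listed at 0 throughout and lies wholly inside Med12l, Aif1 had 0 to 10 counts, and Tmem119 was at 7.89 to 9.23 CPM in the nApoE3 controls and 1.26 to 3.07 CPM in all other samples. Trem2 set 1 library apart, with 2578 counts in replicate 1 of the nApoE4 controls against 62 and 112 in the others of that group. The T and NK cell markers summed to at most 0.217 CPM and 3 B cell markers to at most 0.362 CPM. The dendritic cell list summed to 17.6 to 19.0 CPM in the nApoE4 controls and 24.7 to 25.8 CPM with nApoE4, and to 24.8 to 26.9 CPM in the nApoE3 controls and 24.7 to 25.0 CPM with nApoE3. Most of that sum was Zbtb46, while the low marker Xcr1 rose with both fragments, from 13 to 29 counts to 38 to 50 counts with nApoE4 (log2 1.29, SE 0.31, edgeR adjusted p = 0.00535) and from 15 to 17 counts to 109 to 120 counts with nApoE3 (log2 2.93, SE 0.20, edgeR adjusted p = 6.51e-08), and Clec9a was at 0 throughout. The part of these markers in the results was not tested.

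Il12b lies on chromosome 11 at 44400063 to 44414033 on the plus strand (GRCm38, GENCODE M21), with 8 exons in its longest transcript. Its promoter is shown because its transcript had the largest log2 fold change of all genes tested with nApoE4. The 300 bases at chr11:44399813-44400112 (RefSeq, GRCm38.p6, plus strand) run from 250 bases before the start site to 50 bases after it. Capitals mark matches on either strand to the ETS core GAGGAA, which binds factors such as PU.1 and ETS2.

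Il12b: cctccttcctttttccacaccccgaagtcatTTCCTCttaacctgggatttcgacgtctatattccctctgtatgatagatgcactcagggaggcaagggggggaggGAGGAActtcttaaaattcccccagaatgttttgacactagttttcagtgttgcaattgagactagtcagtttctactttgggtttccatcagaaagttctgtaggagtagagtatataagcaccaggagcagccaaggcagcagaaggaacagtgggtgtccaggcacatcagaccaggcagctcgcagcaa

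The ETS core occurred at bases 32 to 37 on the minus strand and at bases 108 to 113 on the plus strand of this window. It was found in 28.1% of the 32544 distinct promoters of the same length. Within the window there was no match on either strand to the other letters searched, which were GGGNNNNTCC for NF-kB (19.2% of promoters), GAAANNGAA for interferon regulatory factors (8.53%), TTGCNNAA for C/EBP (10.8%), TGANTCA for AP-1 (7.79%) and TATAAA for the TATA box (13.6%). Of the 5 subunit genes, 3 had an entry in the promoter table, and Il23a and Il27 had none. The Ebi3 promoter held 1 ETS match and 1 NF-kB match, and the second of the Il12a promoters held 3 NF-kB matches, of which a pair overlapped. These matches are descriptions of letters, and factor binding was not measured. Sites that differ from the exact letters were not searched, so no match does not mean that a promoter lacks the element.

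Il12b, the shared p40 chain of IL-12 and IL-23, was nearly silent in controls and among the most induced genes with either fragment. With nApoE4 it rose from 3, 3 and 4 counts to 2035, 2279 and 2305 counts. In CPM this was 0.0757 ± 0.0096 (SD, n = 3) in controls and 53.8 ± 5.2 (SD, n = 3) with the fragment. All 3 treated samples lay far above all 3 controls, and in bulk RNA more expressing cells and more RNA per cell cannot be told apart. The log2 fold change was 9.44 (SE 0.16, edgeR quasi-likelihood adjusted p = 3.94e-10), rank 1 of 14240 genes tested. Because the controls held so few reads, the ratio of summed counts, 707, has a wide counting interval of 384 to 1475 (95%).

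With nApoE3, Il12b rose from 5 counts in each of 3 controls to 1150 and 887 counts. The level went from 0.0799 ± 0.0080 CPM (SD, n = 3) to 17.1 ± 2.8 CPM (SD, n = 2), again without overlap. The log2 fold change was 7.76 (SE 0.17, edgeR adjusted p = 1.53e-12), rank 7 of 14817 genes tested, and the ratio of counts was 215 (130 to 386).

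Il27, the p28 chain of IL-27, followed the same pattern at a lower fold. It lies on chromosome 7 at 126589010 to 126594941 on the minus strand and has 5 exons. With nApoE4 its counts were 7, 3 and 3 in controls and 739, 804 and 667 with the fragment, or 0.101 ± 0.059 CPM and 17.9 ± 1.4 CPM (SD, n = 3 each). The log2 fold change was 7.48 (SE 0.20, edgeR adjusted p = 2.43e-09), rank 23. The ratio of summed counts was 182, with a 95% counting interval of 106 to 342. Replicate 1 of the controls, which held the high Trem2 count, also held the highest Il27 count, and without it the log2 fold change was 8.02 (edgeR adjusted p = 4.10e-08).

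With nApoE3 the Il27 counts were 9, 7 and 10 in controls and 626 and 501 with the fragment, or 0.139 ± 0.032 CPM (SD, n = 3) and 9.45 ± 1.28 CPM (SD, n = 2). Treated and control samples did not overlap. The log2 fold change was 6.13 (SE 0.18, edgeR adjusted p = 1.50e-11), rank 37, and the ratio of summed counts was 68.8 (95% counting interval 46.7 to 106). The 3′ end of Il27 overlaps the gene Apobr, which runs the other way, by 117 bases in RefSeq (1.94% of the Il27 span). Apobr, a receptor for apolipoprotein B48, had 3759 to 5659 counts in the 6 controls, where Il27 had 3 to 10. It rose by 1.44 on the log2 scale with nApoE4 (SE 0.06, edgeR adjusted p = 3.48e-08) and by 1.16 with nApoE3 (SE 0.03, edgeR adjusted p = 1.66e-12).

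Il23a, the p19 chain of IL-23, rose less and stayed at a low level. The gene lies on chromosome 10 at 128296139 to 128298752 on the minus strand and has 3 exons in its longest transcript. Counts were 8, 12 and 6 in the nApoE4 controls and 107, 94 and 138 with nApoE4, or 0.199 ± 0.072 CPM and 2.76 ± 0.64 CPM (SD, n = 3 each). The ratio of summed counts was 13.9 (95% counting interval 9.34 to 21.6). The log2 fold change was 3.81 (SE 0.29, edgeR adjusted p = 3.29e-06), rank 185, with no overlap between the groups. Without replicate 1 of these controls, the library with the high Trem2 count, it was 3.78 for Il23a and 9.40 for Il12b.

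In the nApoE3 experiment Il23a went from 10, 8 and 5 counts to 75 and 67 counts, or from 0.120 ± 0.029 CPM (SD, n = 3) to 1.19 ± 0.07 CPM (SD, n = 2). The log2 fold change was 3.32 (SE 0.27, edgeR adjusted p = 2.92e-07), rank 259, and the ratio of summed counts was 9.80 (95% counting interval 6.28 to 16.0). Of all genes tested, 28.6% were called higher and 28.6% lower with nApoE4, and 33.1% were called higher and 34.6% lower with nApoE3. The 3 members with counts were called higher in both experiments, but they passed the filter on low counts through their treated samples, so nothing is read from that count against these shares. The lack of overlap between groups, given for several genes, is a description too, because its share over all genes was not computed.

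**Figure D1:**
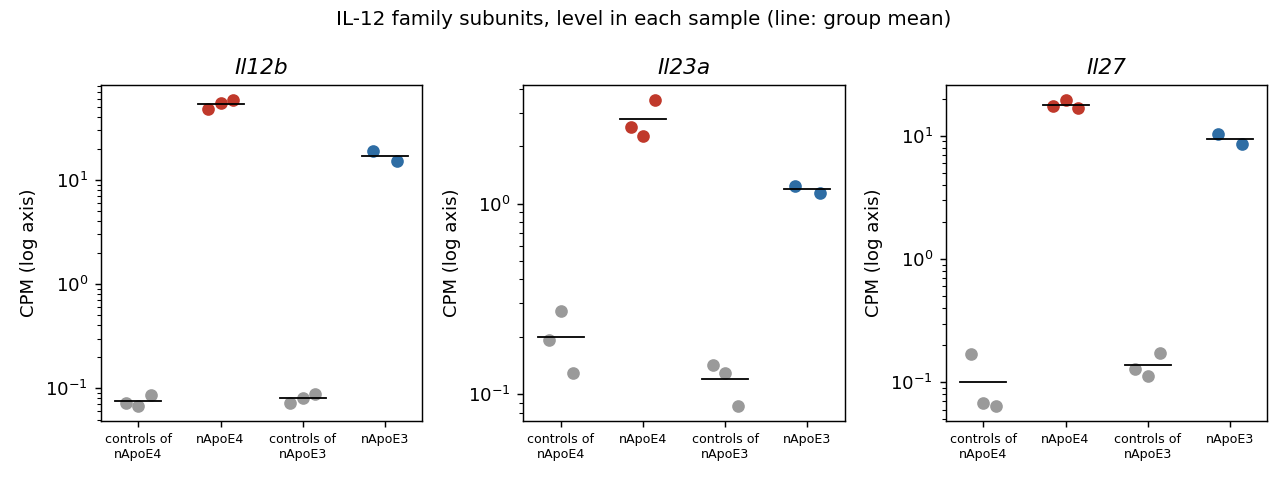
Level of Il12b, Il23a and Il27 in each of the 11 samples, in CPM on a log axis with its own range in each panel, where points are samples and the line is the group mean. Controls of both experiments sit between 0.0649 and 0.273 CPM, and every treated sample lies above every control sample.

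Ebi3, the partner of p28, was listed at 0 in all 11 samples, and its level could not be read from these counts. The gene lies on chromosome 17 at 55952640 to 55957022 on the plus strand (GENCODE M21). In the RefSeq annotation of GRCm38.p6, 100% of its span is covered by Zfp119b and Gm16712, both listed on the table of counts. Among protein-coding genes whose whole span lies inside other genes, 771 of 837 were listed at 0 in every sample (92.1%). Among those clear of other genes the share was 2441 of 12194 (20.02%), and among those partly covered it was 219 of 7412 (2.95%). Genes that most cells or activated macrophages express, such as B2m (inside Patl2), Cxcl10 (inside Art3) and Il6 (inside A230098N10Rik), were also at 0 in every sample.

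The genes that cover Ebi3 both lie on the opposite strand. Zfp119b had 169 to 244 counts in controls and rose by 0.77 on the log2 scale with nApoE4 (SE 0.12, edgeR adjusted p = 0.000354) and by 0.53 with nApoE3 (SE 0.10, edgeR adjusted p = 0.000492). Gm16712, with 9 to 56 counts in controls, changed by 0.67 with nApoE4 (SE 0.35, edgeR adjusted p = 0.135) and rose by 0.95 with nApoE3 (SE 0.22, edgeR adjusted p = 0.00192). Whether reads of Ebi3 are among these counts was not tested. Il12a, on chromosome 3 at 68690644 to 68698547, was at 0 in every sample too, but no other gene of the RefSeq table overlaps it. A count of 0 allows up to 3 counts, or 0.0429 to 0.0758 CPM across samples.

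The subunits were compared with each other as reads per kilobase of merged exons in GENCODE M21, which were 1967 bases for Il12b, 2247 for Il23a and 1021 for Il27. In RefSeq the whole Il23a span is 1945 bases, shorter than the exon length used here. A shorter length for Il23a would raise its level and lower the ratios taken over it. With nApoE4 the order of the levels in CPM per kilobase was Il12b at 27.4 ± 2.7, Il27 at 17.6 ± 1.3 and Il23a at 1.23 ± 0.28 (SD, n = 3). With nApoE3 it was Il27 at 9.26 ± 1.26, Il12b at 8.68 ± 1.40 and Il23a at 0.531 ± 0.031 (SD, n = 2), where the range over samples was 8.37 to 10.1 for Il27 and 7.69 to 9.68 for Il12b. In controls all 3 were at 0.0385 to 0.136 CPM per kilobase on average, near the floor, and no order was read from them.

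Within each treated sample, Il12b transcripts outnumbered those of its IL-23 partner. The ratio of Il12b to Il23a per kilobase was 21.6, 27.6 and 19.0 in the nApoE4 samples and 17.4 and 15 in the nApoE3 samples. In the controls of both experiments it was 0.320 to 1.14. On the log2 scale the mean was 4.49 ± 0.27 (SD, n = 3) with nApoE4 against -1.02 ± 0.66 in its controls (exact permutation test, two-sided p = 0.1, the smallest that 3 against 3 allows). With nApoE3 it was 4.02 ± 0.15 (SD, n = 2) against -0.33 ± 0.48 (exact permutation p = 0.2, the smallest that the form of test used gives for 2 against 3). The control ratios rest on 3 to 5 Il12b counts and 5 to 12 Il23a counts per sample, near the floor. These comparisons with controls restate the folds of members chosen with results known, so the tests add no support.

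Il12b and Il27 were closer to parity. Their ratio per kilobase was 1.43, 1.47 and 1.79 with nApoE4, where Il12b was in excess in all 3 samples, and 0.953 and 0.919 with nApoE3, where it was not in excess in either sample. The log2 means of 0.64 ± 0.18 and -0.10 ± 0.04 differed by 0.73 (exact permutation p = 0.2, the smallest that the form of test used gives). Il27 over Il23a, at log2 means of 3.85 ± 0.41 with nApoE4 and 4.11 ± 0.11 with nApoE3, differed by -0.26 (exact permutation p = 0.6). Neither difference subtracts the controls, so fragment and experiment cannot be told apart in them. The sizes depend on the gene length used. With the whole gene span in place of exons, an alternative chosen after seeing the data, the log2 ratio of Il12b to Il23a was 1.88 with nApoE4 and 1.41 with nApoE3.

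**Figure D2:**
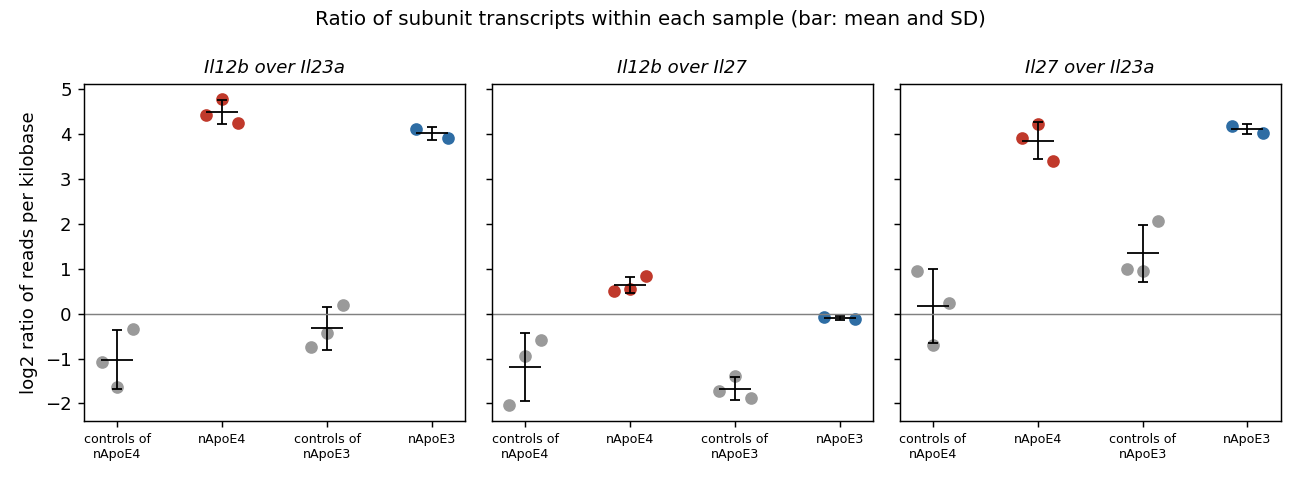
Log2 ratio of reads per kilobase of exon between subunits within each sample, with points for samples and bars for the group mean and SD. Il12b over Il23a is at 3.91 to 4.78 in the 5 treated samples and at -1.64 to 0.19 in the 6 controls, while Il12b over Il27 is above 0 in the nApoE4 samples alone.

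The responses to the fragments were compared by the difference of their log2 fold changes. It was 1.35 for Il27 (SE 0.44, 95% interval 0.50 to 2.21, edgeR adjusted p = 0.0343), with the larger fold in the nApoE4 experiment. It was lost without replicate 2 (1.15, adjusted p = 0.0840) or 3 (1.12, 0.0995) of the nApoE4 controls, without replicate 1 (1.41, 0.0621) or 3 (1.17, 0.11) of the nApoE3 controls, and without replicate 2 of nApoE3 (1.22, 0.0604), all by edgeR.

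For Il12b the difference was 1.68 (SE 0.61, 95% interval 0.48 to 2.88), which did not pass (edgeR adjusted p = 0.0580). It passed with DESeq2 (1.67, adjusted p = 0.0252), with all genes of at least 1 count (1.72, 0.0272), and without replicate 1 of nApoE4 (1.76, 0.0255), replicate 1 of nApoE3 (1.86, 0.0202) or replicate 2 of nApoE3 (1.52, 0.0482). For Il23a it was 0.48 (SE 0.46, 95% interval -0.42 to 1.38, edgeR adjusted p = 0.487), an interval that holds both no difference and one of more than 1 log2 unit. Of all genes tested, 28.3% were called in this comparison, against 1 of the 3 members. The controls of the 2 experiments differed at 69.3% of genes tested, and the members were too low there to be tested.

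**Figure D3:**
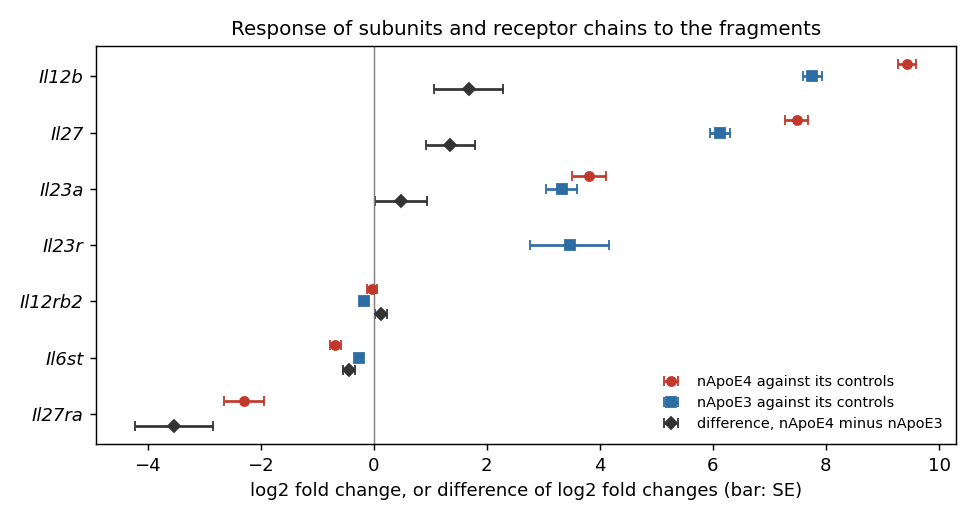
Log2 fold change of 3 subunits and 4 receptor chains with nApoE4 (circles) and nApoE3 (squares), and the difference between them (diamonds), with bars for the SE. The bars understate counting error for folds from controls with few reads, such as those of Il12b and Il27. The subunits lie between 3.32 and 9.44 with either fragment, while Il12rb2 and Il6st lie between -0.68 and -0.04, and comparisons that were not tested, or that rest on a group at 0, have no point.

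Of the 5 receptor chains, 3 were tested with each fragment. With nApoE4 2 fell and none rose, beside 28.6% of all genes in each direction, and with nApoE3 2 fell and 1 rose, beside 34.6% and 33.1%. Il27ra passed the filter on low counts with nApoE4 through its controls, and Il23r passed it with nApoE3 through the treated samples. Nothing is therefore read from these counts against the shares. Il12rb2, a signalling chain of the IL-12 receptor, was well counted in every group, at 26.7 ± 2.0 CPM in the nApoE4 controls and 25.7 ± 1.9 CPM with nApoE4 (SD, n = 3 each). The log2 difference of -0.04 (SE 0.08, edgeR adjusted p = 0.741) did not pass, and it changed sign without replicate 3 of the controls (0.02) or replicate 1 of nApoE4 (0.02). With nApoE3 it fell by 0.17 (SE 0.05, edgeR adjusted p = 0.00513), from 36.3 ± 2.1 CPM to 31.2 ± 1.6 CPM. That call was lost without replicate 2 of nApoE3 (-0.12, edgeR adjusted p = 0.0695) and with all 11 samples in one fit (-0.17, 0.0833). Il12rb1, its partner and a chain of the IL-23 receptor as well, had 0 to 8 counts per sample and was not tested.

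Il6st, the gp130 chain that IL-27 shares with IL-6, fell from 120 ± 15 CPM to 73.6 ± 1.1 CPM with nApoE4 (log2 -0.68, SE 0.09, edgeR adjusted p = 0.000154). With nApoE3 it fell from 95.2 ± 3.8 CPM to 77.3 ± 1.9 CPM (log2 -0.25, SE 0.03, edgeR adjusted p = 2.53e-05). The difference between the responses was -0.44 (SE 0.11, edgeR adjusted p = 0.0110), and it was lost without replicate 2 of nApoE3 (-0.41, 0.0507).

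Il27ra, the other chain of the IL-27 receptor, had 44, 38 and 31 counts in the nApoE4 controls and 7, 4 and 10 with nApoE4, and fell by 2.30 on the log2 scale (SE 0.35, edgeR adjusted p = 0.000351). In the nApoE3 experiment it had 5, 5 and 1 counts in controls and 9 and 7 with the fragment, too few for a test. The responses differed by -3.54 (SE 0.69, edgeR adjusted p = 0.00185). The starting levels also differed, since the nApoE3 controls were 3.83 log2 units below the nApoE4 controls (SE 0.39, edgeR adjusted p = 5.10e-05), and the treated samples of both experiments were at 0.0968 to 0.253 CPM.

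Il23r, the specific chain of the IL-23 receptor, was at 0 in all 3 nApoE4 controls and had 8, 6 and 8 counts with nApoE4, at least 2.61-fold higher when the controls are set at the floor of 3 counts per library. It was not tested there. In the nApoE3 experiment counts went from 0, 5 and 1 to 29 and 14, a log2 fold change of 3.47 (SE 0.70, edgeR adjusted p = 0.000845). The size rests on single libraries, since it was 5.23 without replicate 2 of the controls (edgeR adjusted p = 0.000226), 2.83 without replicate 1 of the controls (edgeR adjusted p = 0.00360) and 2.88 without replicate 1 of nApoE3 (edgeR adjusted p = 0.0290). No difference of responses is given, because the nApoE4 fold is a lower bound.

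**Figure D4:**
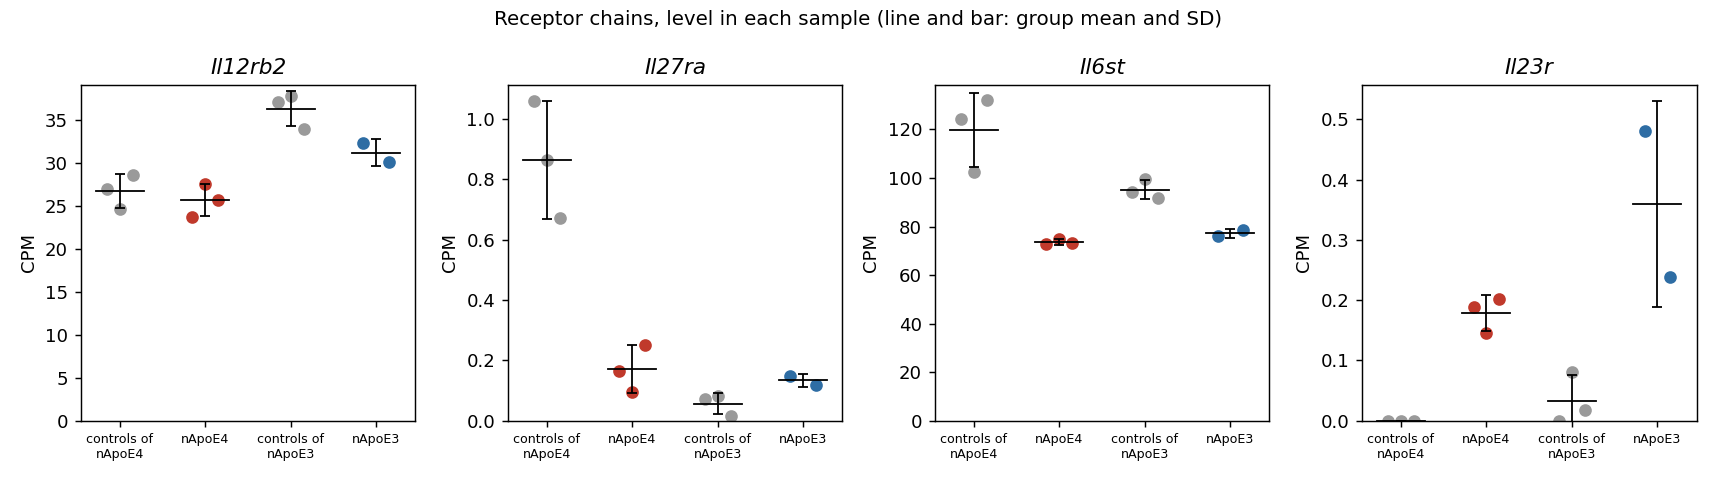
Level of 4 receptor chains in each sample, in CPM on linear axes that start at 0 and differ between panels, with points for samples and the line and bar for the group mean and SD. Il6st is lower with either fragment, Il27ra is high in the nApoE4 controls alone (0.671 to 1.06 CPM), and Il23r stays below 0.5 CPM.

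Around the subunits, 70 genes of the pathway were listed, from receptors that induce the cytokines to products of the lymphocytes they act on. Of 51 tested with nApoE4, 33 were higher, 10 lower and 8 did not pass. Of 54 tested with nApoE3, 38 were higher, 12 lower and 4 did not pass. The shares called higher were 64.7% and 70.4%, beside 28.6% and 33.1% of all genes, and the shares called lower were 19.6% and 22.2%, beside 28.6% and 34.6%. The counts of each list that follows stand beside these same shares of all genes, and the lists were drawn up with earlier results known. Genes such as Batf and Adora2a, counted here, passed the filter on low counts through their treated samples. Of 55 tested for a difference of responses, 11 had a higher log2 change with nApoE4 than with nApoE3 and 22 a lower one. The other 22 did not pass. The share of all genes called, 28.3%, takes both directions together, so it stands beside the 11 and 22 combined and not beside either alone.

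Of 6 JAK and STAT proteins, which carry the signal of the receptors, 4 of 5 tested were higher with nApoE4 and 5 of 6 with nApoE3, with none lower, at a median log2 change of 1.44 and 1.22 (all genes 0.00 in both). Jak2, which binds the IL-12 and IL-23 receptors, rose by 2.15 (SE 0.06) with nApoE4 and 1.71 (SE 0.03) with nApoE3. Tyk2, the partner kinase, rose by 1.44 and 1.16. Stat3 rose by 0.24 and 1.28, with a difference of -1.05 between responses (SE 0.06, edgeR adjusted p = 1.67e-07). Stat4, the main IL-12 signal factor of lymphocytes, had 1 to 15 counts per sample and did not pass with nApoE3.

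Of 17 transcription factors known to act on these genes, 10 of 16 tested were higher and 4 lower with nApoE4, at a median log2 change of 1.38, and 12 of 17 were higher and 4 lower with nApoE3, at a median of 1.01. Batf, an AP-1 family factor, went from 1 to 5 counts in the nApoE4 controls to 96 to 141 counts. Its ratio of summed counts was 47 (counting interval 23.6 to 109.7) with nApoE4 and 59.9 (33.1 to 121) with nApoE3. Its log2 fold changes of 5.51 and 5.91 became 6.28 without replicate 2 of the nApoE4 controls and 6.64 without replicate 1 of the nApoE3 controls. Nfkbiz, the inducible IkB-zeta known to take part in Il12b transcription, rose by 4.02 (SE 0.08) and 3.75 (SE 0.04). Irf1 rose by 3.71 and 2.44 and Relb by 3.3 and 1.92, and both rose more with nApoE4, by 1.26 (SE 0.09, edgeR adjusted p = 6.52e-07) and 1.37 (SE 0.10, edgeR adjusted p = 5.22e-07). Rel, the c-Rel subunit known for its role at Il12b and Il23a, rose by 1.86 and 1.01, a difference of 0.84 (SE 0.17, edgeR adjusted p = 0.00240).

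Several factors moved the other way. Irf8, a known activator of Il12b in myeloid cells, fell by 1.44 (SE 0.06) with nApoE4 and by 0.94 (SE 0.04) with nApoE3. Batf3 fell by 1.77 and 1.05, and Fos fell by 2.33 and by 1.29. Irf3 fell by 0.09 with nApoE3 (SE 0.03, edgeR adjusted p = 0.0280), and with nApoE4 its value of -0.09 did not pass (edgeR adjusted p = 0.355). Jun fell by 0.89 with nApoE4 (SE 0.05, edgeR adjusted p = 6.26e-07) and rose by 0.71 with nApoE3 (SE 0.03, edgeR adjusted p = 1.62e-09), a difference of -1.61 (SE 0.07, edgeR adjusted p = 7.60e-09).

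Of 11 genes known to restrain these cytokines, 7 were higher and 1 lower with nApoE4, and 8 were higher and 2 lower with nApoE3. Adora2a, an adenosine receptor, had 4 counts in all over the nApoE4 controls and 1030 with nApoE4, a ratio of 275 (counting interval 107 to 1012), and a ratio of 80.7 (40.6 to 188) with nApoE3. Its log2 fold change of 7.99 with nApoE4 was 9.23 without replicate 1 of the controls, and that of 6.31 with nApoE3 was 5.66 and 7.16 without replicates 1 and 3 of the controls. Zc3h12a, the RNase Regnase-1 that degrades Il12b transcripts, rose by 1.99 (SE 0.07) and 2.61 (SE 0.05). Bcl3, a nuclear IkB protein, rose by 1.76 and 1.43. Maf, a repressor of Il12 genes, fell by 1.73 and 1.86. Nfil3 rose by 0.61 with nApoE4 (edgeR adjusted p = 2.35e-05) and fell by 0.20 with nApoE3 (edgeR adjusted p = 0.00185). Il10, the best known suppressor, had 9 to 25 counts per sample and did not pass with either fragment (log2 0.07, SE 0.36, and -0.02, SE 0.41).

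Of 14 receptors and adaptors known to induce the family, 11 were higher and 2 lower with nApoE4, and 11 higher and 3 lower with nApoE3. Cd40, through which T cells raise IL-12 output, rose by 5.83 (SE 0.07) and 5.19 (SE 0.06), and Nod2, a sensor of bacterial wall fragments, by 3.90 and 3.92. Cd14, the co-receptor of TLR4, rose by 2.75 and 3.53, and Tlr2 by 2.67 and 2.49. Tlr4 itself fell by 1.56 (SE 0.06) and 0.80 (SE 0.03), and Tlr9 by 0.93 and 0.86. Ifngr1, the ligand-binding chain of the interferon-gamma receptor, fell by 0.21 with nApoE3 (edgeR adjusted p = 0.000165), and with nApoE4 its value of -0.01 did not pass.

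**Figure D5:**
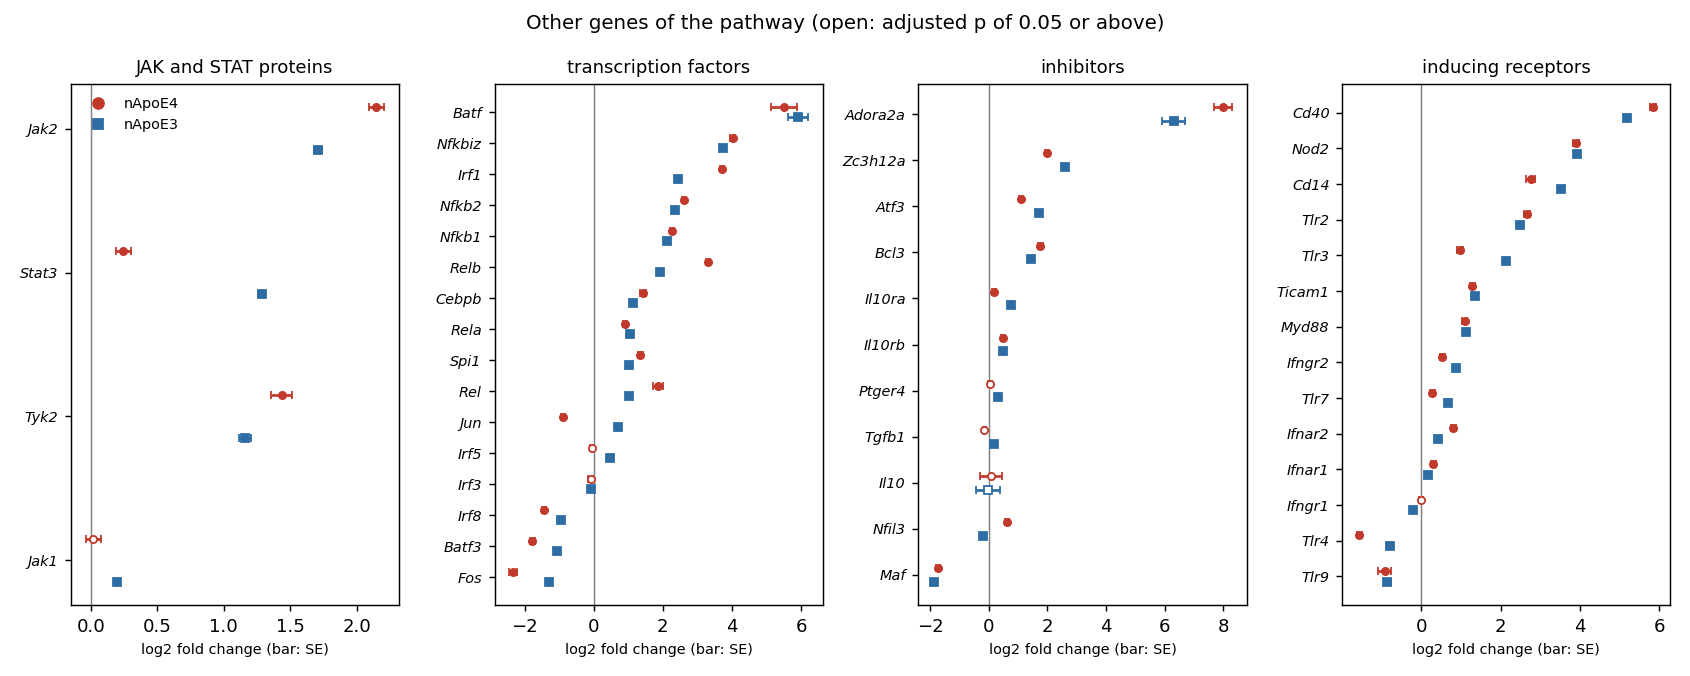
Log2 fold change with nApoE4 (circles) and nApoE3 (squares) of the genes of 4 lists tested in both experiments and reported here, with bars for the SE, open symbols for an adjusted p of 0.05 or above, and a scale of its own in each panel. The bars understate counting error for Batf and Adora2a, whose controls held few reads. Irf8, Batf3, Fos, Maf, Tlr4 and Tlr9 were called lower with both fragments, and Jun and Nfil3 were called in opposite directions.

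Of 10 related cytokines and soluble receptors, 3 were listed at 0, among them Il6. Il6ra, the IL-6 receptor chain, fell by 1.69 (SE 0.09) with nApoE4 and 0.93 (SE 0.04) with nApoE3, and Osm, which encodes oncostatin M, rose by 1.27 (SE 0.08) and 2.15 (SE 0.04). Of 7 lymphocyte products induced by these cytokines, such as Ifng and Il17a, 4 were at 0 in every sample and the other 3 had 0 to 13 counts, and none was tested.

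The genes most like each member were found by Pearson's r of log2 CPM over the 11 samples, among 12427 genes whose group mean reached 1 CPM in any of the 4 groups. For Il12b they were Icam1, Lcp2, Lacc1, Cd40 and Traf1, at r of 0.998 to 0.999. For Il27 they were Acod1, Zc3h12c, Ccl4, Rassf4 and Dcbld2, all at 0.996, and for Il23a Nfkbib, Bcl2a1d, Zfp513, Bcl2a1b and Apobr, at 0.991 to 0.994. Bcl2a1b and Bcl2a1d are near-identical copies whose reads may be split uncertainly. Among the members r was 0.995 for Il12b and Il27, 0.976 for Il12b and Il23a, and 0.962 for Il23a and Il27. The samples share 2 experiments and a large step between control and treated groups, so these values describe that step.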

How the data were processed

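Single-end reads of BV2 cells were trimmed by the authors with Trim Galore 0.5.0, checked with FastQC 0.11.8, mapped to GRCm38.p6 with HISAT2 2.1.0 and counted on genes with HTSeq 0.11.0, per the submitters' processing notes and methods. They deposited raw counts per gene for each sample, with 36529 symbols. Strand setting and overlap mode are not given in the sources used here, and 3.24 to 3.56% of tallied reads were ambiguous between genes. Groups came from the sample titles.

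Counts were tested with edgeR 4.0.16 in R 4.3.3 (filterByExpr, TMM, quasi-likelihood F test, Benjamini-Hochberg adjustment over all genes tested, threshold 0.05). Each fragment was fitted with its own controls, and the difference of responses over all 11 samples. The coefficient of variation between replicates estimated by edgeR was 0.0838 in the nApoE4 fit and 0.0262 in the nApoE3 fit. It was 0.0666 in the fit of the difference, which pools both experiments. Standard errors are the log2 fold change divided by the root of F, and 95% intervals are approximate. For folds from controls with few reads these SEs are too small. For Il12b with nApoE4 the SE gives an interval of 9.11 to 9.76 on the log2 scale. That is narrower than its counting interval of 384 to 1475-fold. The procedure was tested on simulated data first. Levels are TMM-scaled CPM over 11 samples. Subunit ratios used reads per kilobase of merged GENCODE M21 exons with 0.5 counts added, and exact permutation tests (scipy 1.17.1). Their two-sided p doubles the smaller tail, so with 2 against 3 samples it cannot go below 0.2. Alternatives were DESeq2 1.42.0, its size factors in edgeR, other count filters, all samples in one fit, a replicate block, other gene lengths, 1 count added, and leaving out each sample. Replicate numbers were not used to pair samples in the main fits.

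The members, lists and tests were chosen with earlier results of these data known. Named were the members and Il12a, all receptor chains, of each other list up to 4 genes with the largest nApoE4 change among those past the threshold, list genes moving against the rest, and the 5 genes most like each member. A further gene of the JAK and STAT list is counted with it but not reported here. Rel, Il10, Stat4 and Ifngr1 were named after their values were seen.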

Additional observations from a re-analysis of the deposited data

Results flagged for a closer look

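The responses to the fragments differed by the interaction test for 3 genes of the family and its receptors. For Il27 the difference of log2 fold changes, nApoE4 minus nApoE3, was 1.35 (edgeR adjusted p = 0.0343), and every treated sample of both experiments was above its controls. That call was lost in 5 of the 11 fits that left out a sample, and with the replicate block (edgeR adjusted p = 0.154). For Il27ra it was -3.54 (edgeR adjusted p = 0.00185), with starting levels that differed between the control groups. For Il6st it was -0.44 (edgeR adjusted p = 0.0110), with lower levels in all treated samples than in any control of the same experiment. It was lost without replicate 2 of nApoE3 (edgeR adjusted p = 0.0507) and with the replicate block (edgeR adjusted p = 0.0698). No group held 4 or more samples, so no rule for a sample far from the others was applied. Pairs of samples within a group were compared by chi-square per degree of freedom. In the nApoE4 controls it was 25.8 for replicates 1 and 2, 47.9 for 2 and 3, and 7.85 for 1 and 3. With nApoE4 the same pairs gave 11.9, 12.05 and 5.36, so replicate 2 lay furthest out in both groups. It was 3.15 to 4.01 in the nApoE3 controls and 4.34 with nApoE3. The cause was not tested.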

How the results depend on the processing

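The rise of Il12b, Il23a and Il27 with either fragment kept its direction and passed under all alternatives in which they could be tested. Without 1 sample the log2 changes with nApoE4 ranged from 9.36 to 9.54, 3.57 to 4.10 and 7.24 to 8.02, and with nApoE3 from 7.59 to 7.92, 3.16 to 3.46 and 5.98 to 6.32. With at least 10 counts required in every sample the members had no value. The fits without 1 nApoE3 sample assume that the lone sample varies like the other groups.

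The difference of responses was less stable. For Il12b (1.68) it passed with DESeq2 (1.67) and with all genes of at least 1 count (1.72), and ranged from 1.52 to 1.86 without 1 sample. For Il27 (1.35) it did not pass with the replicate block (1.16, edgeR adjusted p = 0.154), and ranged from 1.12 to 1.90 without 1 sample, with adjusted p from 0.0126 to 0.11. Il6st did not pass with the block (-0.42, edgeR adjusted p = 0.0698). The block cut the number of genes called higher from 2208 to 1150 and lower from 2123 to 1157, and of pathway genes called higher from 11 to 6 and lower from 22 to 18. Same-numbered samples correlated at -0.410 to 0.013 in their deviations from group means. With groups of 2 or 3 samples, such deviations cannot decide whether the numbers pair them. Without 1 sample the pathway genes called higher were 7 to 13, with 7 when replicate 2 of nApoE3 was left out. The cause of these shifts was not tested.

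Il12rb2 with nApoE4 ranged from -0.097 to 0.022 without 1 sample, and changed sign without replicate 3 of its controls (0.017) or replicate 1 of nApoE4. By the longest transcript as gene length, the log2 ratio of Il12b to Il23a was 4.12 with nApoE4 and 3.65 with nApoE3, and that of Il27 to Il23a was 3.73 with nApoE3. By gene span, chosen after seeing the data, Il12b over Il23a was 1.88 and 1.41, Il12b over Il27 0.35 and -0.39, and Il27 over Il23a 1.53 and 1.79. Of 647 log2 values recomputed under an alternative, 630 kept their direction and side of the threshold. Of the 647, 539 belonged to single genes other than members, of which 533 kept theirs. Among the members every change was in the difference of responses, for Il12b and Il27. Apart from leaving out samples, it changed in 2 of 4 settings for Il12b and 1 of 4 for Il27.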
